A study of Mus musculus with 79 samples.

Results

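Marco, Msr1, Mrc1, Cd68, Ctsk, Gpnmb, Trem2, Atp6v0d2 and Siglec5 are 9 macrophage genes. Most of them serve to bind particles, lipids and dead cells or to digest them in lysosomes, while Siglec5 is a sialic acid receptor. All 9 were found by symbol or synonym among the 31350 rows of the array table, of which 21837 had a symbol. The row with the highest mean was kept for each gene. Siglec5 is a synonym shared by Siglecf and Siglece, and the Siglecf row, which had the higher mean, stands for it here. Expression was measured on 1 array per mouse in homogenised right lung of 79 C57BL/6J mice aged 5 to 7 weeks. The mice were wild type (WT) or carried a transgene for Scnn1b, the beta subunit of the epithelial sodium channel, expressed in the airway epithelium (BENaC). BENaC mice and sex-matched WT littermates breathed the smoke of 6 research cigarettes a day, or room air in the same chamber (sham), for 1 day or for 5 days. Lungs were taken 4 h after the last exposure. The 16 groups by genotype, exposure, sex and duration held 4 to 6 mice, 40 mice at 1 day and 39 at 5 days. Pooled over sex, the groups at 5 days were 11 WT sham, 9 WT smoke, 9 BENaC sham and 10 BENaC smoke mice, and each group at 1 day held 10.

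Scavenger receptors on the macrophage surface take up modified lipoproteins, bacteria and inhaled particles into vesicles that fuse with lysosomes. There, proton pumps of the V-ATPase family acidify the lumen so that cathepsins and other hydrolases can break the cargo down. Alveolar macrophages clear particles, mucus and surfactant from the airspace and carry MARCO and Siglec-F, while GPNMB, cathepsin K, TREM2 and the d2 subunit of the proton pump are known from lipid-laden macrophages and, in part, from osteoclasts.

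Since most of the genes moved together, their promoters were searched for 4 short motifs, on both strands: CACGTG (the E-box of the CLEAR element of lysosomal genes), TCATGTG (the M-box of the MITF family), GAGGAAG (the site of PU.1, a macrophage lineage factor) and TGANTCA (AP-1). RefSeq promoters (GRCm38.p6, 250 bases before to 50 after the start site) were given for 7 of the 9 genes, all but Msr1 and Atp6v0d2. The 4 sequences below belong to genes with some of the largest differences by genotype. Trem2 lies at chr17:48346151-48346450 on the plus strand, Cd68 at chr11:69666121-69666420 on the minus strand, Gpnmb at chr6:49036268-49036567 on the plus strand and Ctsk at chr3:95498960-95499259 on the plus strand. Capitals mark matches to any of the 4 motifs, read 5′ to 3′ on the gene's strand.
Trem2: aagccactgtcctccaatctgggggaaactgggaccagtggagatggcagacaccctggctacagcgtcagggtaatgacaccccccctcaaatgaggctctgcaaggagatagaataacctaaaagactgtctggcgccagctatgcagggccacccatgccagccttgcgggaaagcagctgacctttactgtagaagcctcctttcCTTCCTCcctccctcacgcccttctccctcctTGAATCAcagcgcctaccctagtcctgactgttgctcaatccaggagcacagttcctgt
Cd68: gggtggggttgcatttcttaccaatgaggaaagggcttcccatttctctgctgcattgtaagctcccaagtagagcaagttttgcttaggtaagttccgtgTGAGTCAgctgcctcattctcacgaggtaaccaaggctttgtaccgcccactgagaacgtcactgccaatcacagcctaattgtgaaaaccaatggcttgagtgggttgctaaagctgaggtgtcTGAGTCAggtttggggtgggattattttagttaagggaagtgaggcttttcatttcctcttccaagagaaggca
Gpnmb: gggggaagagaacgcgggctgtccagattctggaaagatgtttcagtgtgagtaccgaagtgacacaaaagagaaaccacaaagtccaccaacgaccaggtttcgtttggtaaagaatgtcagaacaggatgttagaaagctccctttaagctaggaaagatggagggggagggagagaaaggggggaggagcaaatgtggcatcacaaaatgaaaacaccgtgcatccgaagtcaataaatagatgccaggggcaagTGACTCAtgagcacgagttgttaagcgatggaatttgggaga
Ctsk: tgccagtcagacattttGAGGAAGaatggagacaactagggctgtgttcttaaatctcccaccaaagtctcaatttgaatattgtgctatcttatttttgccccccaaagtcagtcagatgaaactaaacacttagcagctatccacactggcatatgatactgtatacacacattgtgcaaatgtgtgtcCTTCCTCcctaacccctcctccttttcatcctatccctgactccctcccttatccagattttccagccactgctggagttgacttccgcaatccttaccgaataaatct
Trem2 held 1 PU.1 match and 1 AP-1 match, Cd68 held 2 AP-1 matches and Gpnmb 1, and Ctsk held 2 PU.1 matches. The CLEAR E-box was in 0 of the 7 promoters, against 7.15% of all 32851 promoters. PU.1 was in 5 of 7 (Marco, Mrc1, Trem2, Siglec5 and Ctsk) against 13.6% of all, AP-1 in 3 of 7 (Trem2, Cd68 and Gpnmb) against 7.81%, and the M-box in Siglec5 alone against 3.77%. No matches overlapped. A match is a run of letters and not a site shown to be bound.

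Scnn1b, the gene of the transgene, had log2 intensities of 11.52 to 11.88 in the 39 BENaC mice and 8.42 to 9.47 in the 40 WT mice, so the genotype labels held in every mouse. The source names of 13 WT smoke mice call them BENaC, against their titles and genotype entries, and Scnn1b followed the titles. Lung tissue markers averaged 11.28 or higher on every array. In an earlier clustering of these data 4 mice stood apart from their exposure: WT smoke female replicate 2, BENaC sham male replicate 3 and BENaC smoke female replicate 3, all at 5 days, and BENaC sham male replicate 1 at 1 day. The 3 BENaC mice among them were the highest of their genotype, exposure and duration group for 9 of 9 genes (1 day sham), 8 of 9 (5 days sham) and 8 of 9 (5 days smoke), and results that rest on them are given without them too.

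At 1 day 7 of the 9 genes were called higher in BENaC mice, and at 5 days 8 of 9, with none called lower. A call needed a Benjamini-Hochberg adjusted p below 0.05 over all rows, from limma's moderated test, and a difference beyond 1.3-fold. Over all rows 1.13% were called higher at 1 day and 1.87% at 5 days. The median difference of the 9 genes was 0.86 log2 units at 1 day and 1.00 at 5 days, while over all rows it was 0.00 and -0.01. Leaving out the 4 mice that stood apart kept the counts at 7 and 8. In whole lung, more cells of a type and more RNA per cell cannot be told apart.

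**Figure D1:**
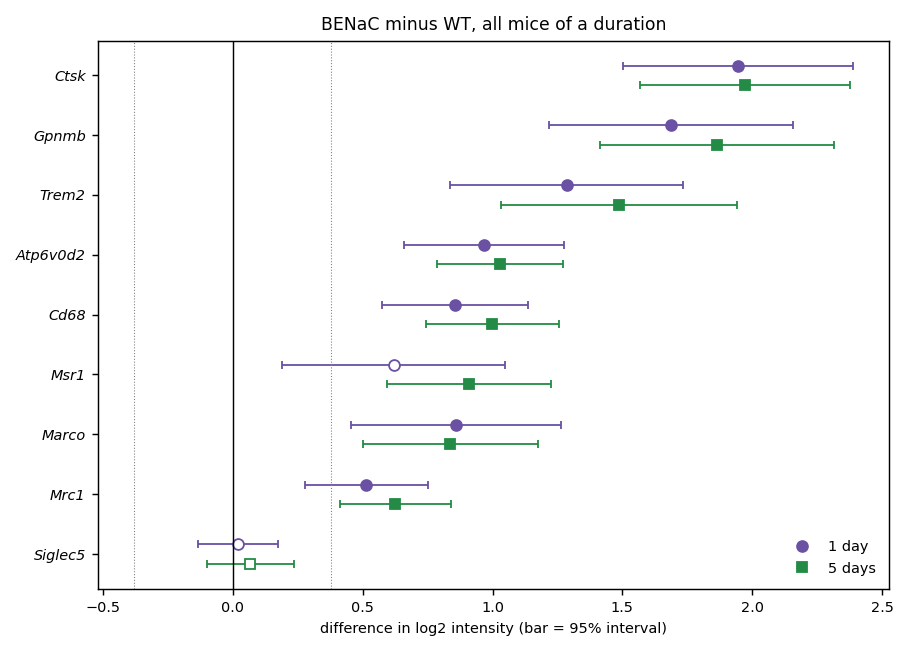
Difference in log2 intensity between BENaC and WT mice (horizontal axis) for each gene (vertical axis), fitted with exposure and sex, at 1 day (circles, 40 mice) and 5 days (squares, 39 mice). Bars are 95% intervals, dotted lines mark 1.3-fold and filled points were called. Ctsk and Gpnmb differed most and Siglec5 stayed near 0 at both durations.

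Marco, Msr1, Mrc1, Trem2 and Siglec5 are the surface receptors. Trem2, a lipid receptor that signals through the adaptor TYROBP, differed most among them. Trem2 averaged 4.73 in WT mice, little above the array medians of 4.44 to 4.55, where small changes are harder to see. Its log2 intensity in sham mice at 5 days had a lowest, median and highest value of 4.42, 4.79 and 5.07 in WT and of 5.56, 6.49 and 7.67 in BENaC. Every BENaC sham mouse lay above every WT sham mouse. Over all mice of a duration Trem2 was 1.29 log2 units higher in BENaC at 1 day (SE 0.22, 2.44-fold, adjusted p = 0.000146, limma) and 1.49 higher at 5 days (SE 0.22, 2.80-fold, adjusted p = 9.33e-06). Without the mice that stood apart these were 1.16 and 1.27, both called.

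Marco, a scavenger receptor for bacteria and mineral particles, had values of 6.25, 6.50 and 7.26 in WT sham mice at 5 days (lowest, median, highest) and of 7.21, 7.93 and 8.58 in BENaC sham mice. The groups overlapped only slightly, with 8 of 9 BENaC sham mice above the highest WT sham mouse. Marco was 0.86 higher in BENaC at 1 day (SE 0.20, adjusted p = 0.00458, limma) and 0.84 at 5 days (SE 0.17, adjusted p = 0.000525). Mrc1, the mannose receptor, whose locus also holds Mir511, differed less but with little spread in WT mice. Its values in sham mice at 5 days were 9.01, 9.17 and 9.30 in WT and 9.48, 9.88 and 10.59 in BENaC, without overlap. Its difference was 0.51 at 1 day (SE 0.12, adjusted p = 0.00391) and 0.63 at 5 days (SE 0.11, adjusted p = 6.07e-05).

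Msr1, the class A scavenger receptor for modified lipoproteins, was called at 5 days but not at 1 day. In sham mice at 1 day it ran from 4.48 over a median of 5.23 to 6.93 in WT and from 4.62 over 5.75 to 7.63 in BENaC, and the groups overlapped almost fully. In sham mice at 5 days it ran from 4.61 over 4.98 to 5.66 in WT and from 5.62 over 6.16 to 6.98 in BENaC, where 7 of 9 BENaC mice lay above all WT mice. The difference over all mice was 0.62 at 1 day (SE 0.21, adjusted p = 0.0795, limma) and 0.91 at 5 days (SE 0.16, adjusted p = 7.29e-05). At 1 day Msr1 gained a call in 4 of the 40 fits that left out 1 mouse, with differences of 0.52 to 0.70. The change of the genotype difference with duration was not called for any of the 9 genes, with a smallest adjusted p of 0.897 (limma) and 0 genes at an unadjusted p below 0.05. Over all rows 0% were called and 6.07% had an unadjusted p below 0.05.

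Siglec5, a sialic acid receptor of alveolar macrophages and eosinophils in the mouse, stood apart from the other 8. Its values in sham mice at 5 days were 5.93, 6.09 and 6.41 in WT and 5.43, 6.19 and 6.80 in BENaC. BENaC mice lay on both sides of the WT range. The difference by genotype was 0.02 at 1 day (95% interval -0.13 to 0.17) and 0.07 at 5 days (95% interval -0.10 to 0.24), and neither was called. The Siglece row, which shares the synonym, gave 0.20 and 0.10, also not called.

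Cd68, Gpnmb, Ctsk and Atp6v0d2 encode lysosomal proteins, and all 4 were called at both durations. Ctsk, the protease cathepsin K, differed most of the 9 genes. In sham mice at 5 days its lowest, median and highest values were 6.41, 6.69 and 7.00 in WT and 8.39, 9.40 and 9.98 in BENaC. In sham mice at 1 day they were 6.19, 6.52 and 6.80 in WT and 7.04, 8.30 and 10.48 in BENaC. Ctsk separated the sham mice without overlap at both durations. Over all mice it was 1.94 log2 units higher in BENaC at 1 day (SE 0.22, 3.85-fold, adjusted p = 5.19e-08, limma) and 1.97 at 5 days (SE 0.20, 3.93-fold, adjusted p = 3.31e-09). Ordered by this difference over all 31350 rows, from the most positive, Ctsk had rank 18 at 1 day and rank 26 at 5 days.

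Gpnmb, a membrane glycoprotein of lysosomes and melanosomes, followed it closely. Its values in sham mice at 5 days were 6.86, 7.24 and 7.57 in WT and 8.45, 9.76 and 11.04 in BENaC, without overlap. The highest BENaC sham mouse was male replicate 3, one of the 4 that stood apart. The difference was 1.69 at 1 day (SE 0.23, 3.22-fold, adjusted p = 3.48e-06, limma) and 1.87 at 5 days (SE 0.22, 3.64-fold, adjusted p = 1.09e-07). Without the 4 mice it was 1.57 and 1.69, both called.

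Atp6v0d2, a subunit of the proton pump of osteoclasts and macrophages, was 0.97 higher in BENaC at 1 day (SE 0.15, adjusted p = 3.75e-05, limma) and 1.03 at 5 days (SE 0.12, adjusted p = 7.27e-08). Its sham values at 5 days were 8.96, 9.20 and 9.33 in WT and 10.01, 10.65 and 11.21 in BENaC. The lowest BENaC mouse was above the highest WT mouse. Cd68, the lysosomal membrane protein macrosialin, was 0.85 higher at 1 day (SE 0.14, adjusted p = 5.92e-05) and 1.00 at 5 days (SE 0.13, adjusted p = 3.60e-07). Its sham values at 5 days were 8.59, 8.89 and 9.12 in WT and 9.57, 10.24 and 10.92 in BENaC, without overlap.

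**Figure D2:**
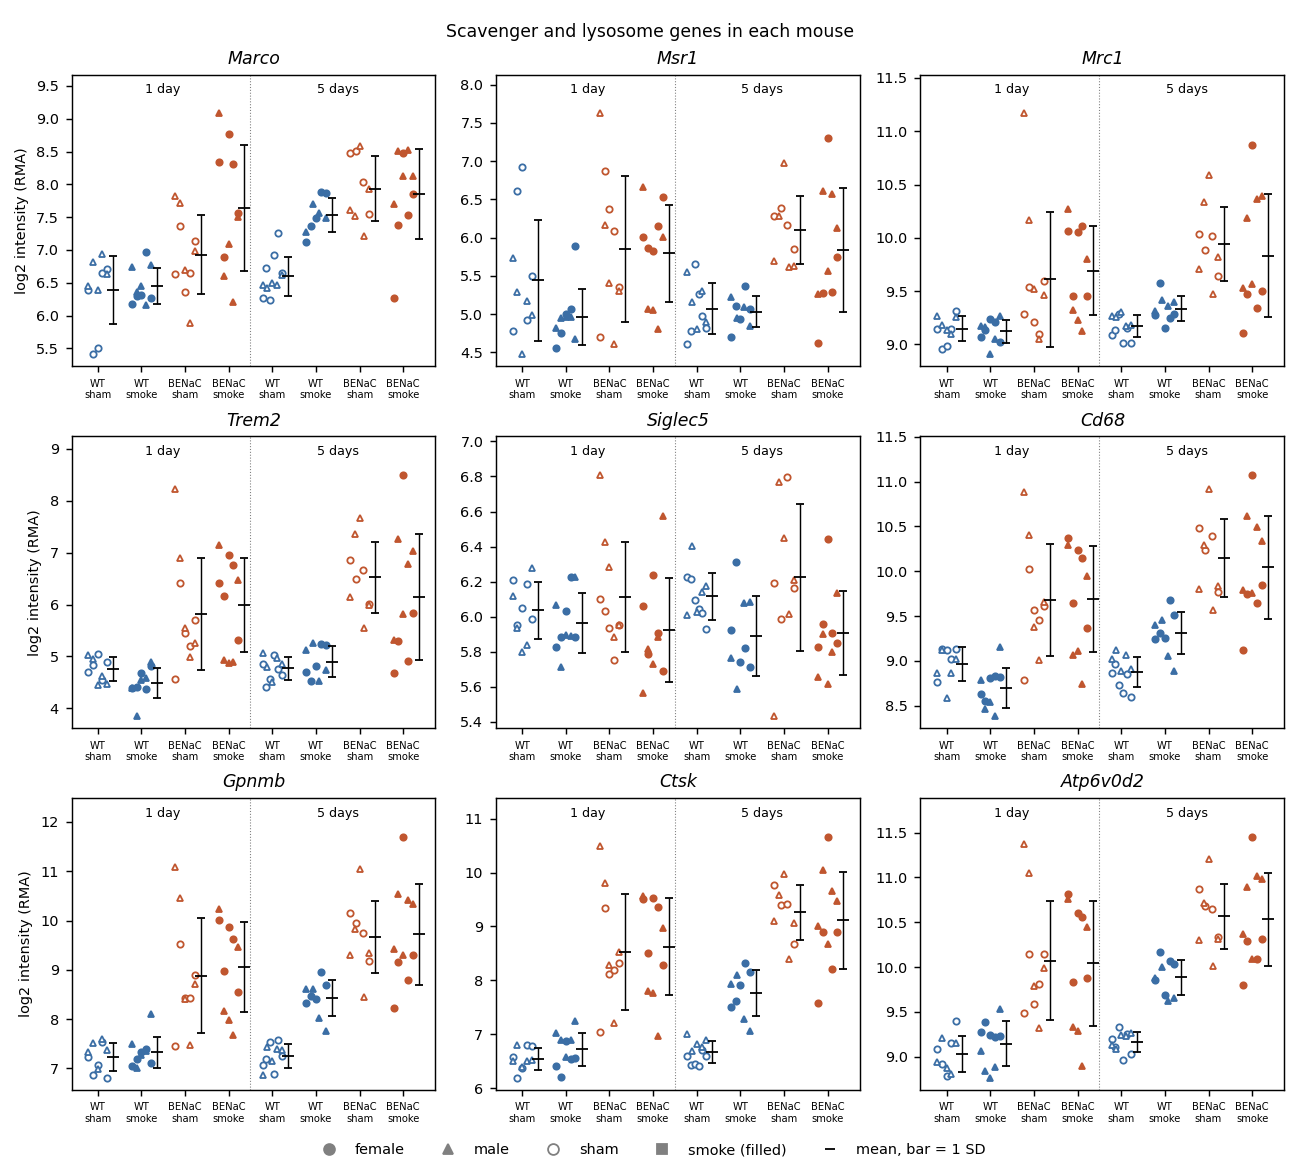
Log2 intensity (vertical axes) of the 9 genes in every mouse, by genotype, exposure and duration (horizontal axes). Circles are female and triangles male mice, open symbols sham and filled symbols smoke, and the black mark is the group mean with 1 SD. BENaC mice lie higher on average and spread wider than WT mice for most genes, Siglec5 being the exception in level, and at 5 days every WT smoke mouse lies above every WT sham mouse for Gpnmb, Ctsk and Atp6v0d2, and 8 of 9 do for Marco.

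The spread between BENaC mice was wide. For Gpnmb the SD at 1 day was 1.17 in BENaC sham and 0.92 in BENaC smoke mice, against 0.29 and 0.31 in the WT groups. For Trem2 it was 1.08 and 0.90 against 0.23 and 0.29. The BENaC sham group at 1 day includes male replicate 1, which stood apart. In its females alone the SD was 0.75 for Gpnmb and 0.67 for Trem2, against 0.29 and 0.19 in WT sham females. The high and low mice were largely shared between genes. BENaC smoke female replicate 1 at 5 days was the lowest of 10 mice for 8 of 9 genes, although its Scnn1b value of 11.55 was that of a BENaC mouse. Its values of 4.68 for Trem2, 4.63 for Msr1, 6.28 for Marco and 9.11 for Mrc1 lay inside the range of WT sham mice at 5 days. Its values of 7.57 for Ctsk, 8.24 for Gpnmb, 9.81 for Atp6v0d2 and 9.13 for Cd68 lay above every WT sham mouse at 5 days. They lay inside the ranges of WT smoke mice at 5 days. Those ranges were 7.06 to 8.32 for Ctsk, 7.76 to 8.96 for Gpnmb, 9.62 to 10.16 for Atp6v0d2 and 8.88 to 9.68 for Cd68. Trem2 of this mouse also lay inside the WT smoke range. Its Msr1, Marco and Mrc1 lay below the lowest WT smoke values of 4.71, 7.12 and 9.15. BENaC sham male replicate 4 at 5 days was the lowest of 9 mice for 8 of 9 genes.

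Within sham mice alone, 8 of 9 genes were called higher in BENaC at 5 days (1.84% of all rows), but only Gpnmb, Ctsk and Atp6v0d2 at 1 day (0.478% of all rows). All 9 differences were positive at both durations. Within smoke mice 6 genes were called at 1 day (1.08% of all rows; Marco, Trem2, Cd68, Gpnmb, Ctsk and Atp6v0d2) and 5 at 5 days (0.66% of all rows; the same genes without Marco). The call of Trem2 in smoke mice at 5 days, at 1.23 (adjusted p = 0.0344, limma), was lost in 9 of the 39 fits that left out 1 mouse (WT smoke female replicates 1, 2 and 3, WT smoke male replicates 4 and 5, BENaC smoke female replicate 3 or BENaC smoke male replicates 2, 4 and 5), with differences of 0.94 to 1.39 over the 39 fits. It was also lost without the 4 mice that stood apart, at 0.92 (adjusted p = 0.0752). Msr1, at 0.80 (adjusted p = 0.0573), gained a call in 6 of the 39 fits and Mrc1 in 1, and the count of calls ran from 4 to 7. At 5 days the difference by genotype was 2.58 in sham and 1.34 in smoke mice for Ctsk, 2.42 and 1.29 for Gpnmb, 1.396 and 0.646 for Atp6v0d2, and 1.33 and 0.32 for Marco. In 6 genes (Mrc1, Trem2, Cd68, Gpnmb, Ctsk and Atp6v0d2) every BENaC sham mouse lay above every WT sham mouse at 5 days, a pattern found in 0.651% of all rows. At 1 day this was so for Ctsk, and in 0.112% of all rows.

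Smoke changed none of the 9 genes by the call rule when both genotypes were fitted as 1 set. At 1 day 0 genes were called (1.07% of all rows were, in either direction), 0 had an unadjusted p below 0.05 in limma (21.5% of all rows had), and the differences between smoke and sham ran from -0.26 to 0.38 log2 units. At 5 days 0 were called (1.15% of all rows were) and 5 had an unadjusted p below 0.05 (18.2% of all rows had), namely Marco, Siglec5, Gpnmb, Ctsk and Atp6v0d2. Siglec5 passed the adjusted p, as 6.53% of all rows did, but not 1.3-fold, at -0.27 (SE 0.08, adjusted p = 0.0396, limma), and 8 of 9 WT smoke and 9 of 10 BENaC smoke mice lay below their sham group's median. Gpnmb was at 0.63 (SE 0.22, adjusted p = 0.0846), Ctsk at 0.49 (SE 0.20, adjusted p = 0.151), Marco at 0.44 (SE 0.17, adjusted p = 0.116) and Atp6v0d2 at 0.35 (SE 0.12, adjusted p = 0.0753). This count turned on single mice. Without BENaC smoke female replicate 1, 4 genes were called higher (Marco, Gpnmb, Ctsk and Atp6v0d2). Without BENaC sham male replicate 3 or BENaC smoke female replicate 4 there were 2, and without BENaC sham female replicate 1 or BENaC smoke male replicate 3 there was 1. Without the 4 mice that stood apart, Gpnmb was called at 0.61 (adjusted p = 0.0461).

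In WT mice alone, 5 days of smoke raised 4 of the 9 genes, Marco, Gpnmb, Ctsk and Atp6v0d2, where 0.453% of all rows were called higher. Ctsk ran from 7.06 over a median of 7.92 to 8.32 in WT smoke mice, above the WT sham mice, which ended at 7.00. Gpnmb ran from 7.76 over 8.46 to 8.96, above the sham maximum of 7.57. Atp6v0d2 ran from 9.62 over 9.88 to 10.16, above the sham maximum of 9.33. These 3 genes separated the WT groups without overlap, which 0.188% of all rows did, and for Marco, from 7.12 over 7.49 to 7.88, 8 of 9 smoke mice lay above every sham mouse. The differences were 1.18 for Gpnmb (SE 0.29, 2.27-fold, adjusted p = 0.0177, limma), 1.10 for Ctsk (SE 0.24, 2.14-fold, adjusted p = 0.00776), 0.93 for Marco (SE 0.20, 1.91-fold, adjusted p = 0.00695) and 0.72 for Atp6v0d2 (SE 0.15, 1.64-fold, adjusted p = 0.00358). All 4 calls held in each of the 39 fits that left out 1 mouse and without the 4 mice that stood apart. Fitted by sex, with fewer mice in each fit, the 4 differences were 0.81 to 1.38 in females, none called. In males they were 0.60 to 1.01, and Marco was called.

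The remaining genes moved less in WT mice at 5 days. Cd68 was at 0.43 (95% interval 0.09 to 0.77, adjusted p = 0.221, limma), with 7 of 9 smoke mice above every sham mouse. Mrc1 was at 0.17, Trem2 at 0.13, Msr1 at -0.04 and Siglec5 at -0.23, none called. At 1 day 0 genes were called in WT mice (1.28% of all rows were) and 0 had an unadjusted p below 0.05 in limma (15.7% of all rows had).

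In BENaC mice at 5 days 0 genes were called for smoke (0.797% of all rows were), and 1 gene, Siglec5, had an unadjusted p below 0.05 in limma (12.6% of all rows had), at -0.32 (adjusted p = 0.213). The 4 genes raised in WT mice were at -0.15 for Ctsk (95% interval -0.65 to 0.36), 0.05 for Gpnmb (-0.54 to 0.65), -0.08 for Marco (-0.50 to 0.34) and -0.03 for Atp6v0d2 (-0.34 to 0.27). BENaC sham and smoke mice overlapped broadly in each, with medians of 9.40 and 8.96 for Ctsk and of 9.76 and 9.36 for Gpnmb. At 1 day 0 genes were called in BENaC mice (0.772% of all rows were), and Marco had an unadjusted p below 0.05 (16.8% of all rows had), at 0.71 (SE 0.28, adjusted p = 0.160).

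**Figure D3:**
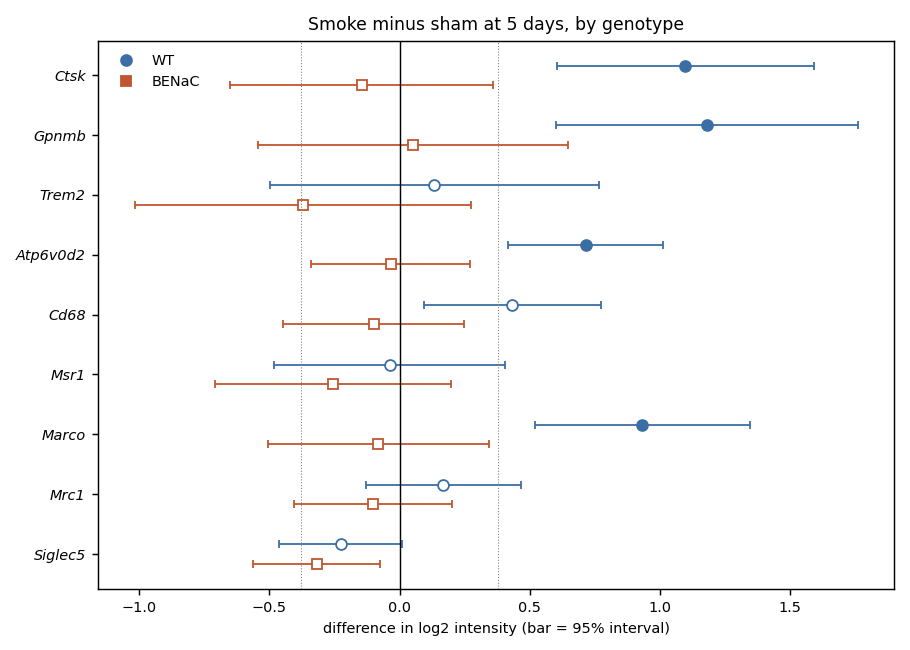
Difference in log2 intensity between smoke and sham mice at 5 days (horizontal axis) for each gene (vertical axis), in WT mice (circles, 20 mice) and BENaC mice (squares, 19 mice). Bars are 95% intervals, dotted lines mark 1.3-fold and filled points were called. Marco, Gpnmb, Ctsk and Atp6v0d2 were called in WT mice and no gene was called in BENaC mice.

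Whether smoke acted differently in the 2 genotypes was tested as the interaction of exposure and genotype. At 5 days all 9 coefficients were negative, from -1.25 to -0.08, and 5 had an unadjusted p below 0.05 in limma, but none passed the adjustment over all rows and 0% of all rows did. Marco was at -1.06 (SE 0.28, unadjusted p = 0.000518, adjusted p = 0.853), Ctsk at -1.25 (SE 0.35, unadjusted p = 0.00121, adjusted p = 0.935), Atp6v0d2 at -0.76 (SE 0.21, unadjusted p = 0.00106, adjusted p = 0.922), Gpnmb at -1.15 (SE 0.42, unadjusted p = 0.00895) and Cd68 at -0.53 (SE 0.24, unadjusted p = 0.0358). Over all rows 3.82% had an unadjusted p below 0.05. A difference between the genotypes in the response to smoke is thus not shown for any of the 9 genes. At 1 day 6 coefficients were positive and 3 negative, and 0 had an unadjusted p below 0.05 (6.98% of all rows had), while 0.00638% of all rows were called.

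Sex called 0 of the 9 genes at 1 day (0.836% of all rows) and 0 at 5 days (0.198%), and 0 had an unadjusted p below 0.05 in limma at either duration (22.2% and 11.3% of all rows had). The interaction of exposure and sex called 0 at 1 day (0.00638% of all rows) and 0 at 5 days (0%). At each duration 1 gene had an unadjusted p below 0.05 (6.33% and 3.46% of all rows had). Its coefficients were negative for all 9 genes at 1 day, from -0.71 to -0.03. At 5 days 8 were positive and 1 negative, from -0.09 to 0.62. The change of the smoke response between 1 and 5 days was fitted over both genotypes together. It was called for 0 genes (1.49% of all rows), with 0 at an unadjusted p below 0.05 (12.5% of all rows). Its coefficients ran from -0.14 to 0.50. This change was not tested within WT mice alone.

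Other genes of the same organelles were measured from lists of 31 lysosomal genes, which include their transcription factors, and 17 V-ATPase subunits, of which 14 had a row. Of the 31 lysosomal genes 23 passed the adjusted p higher in BENaC mice at each duration (3.58% of all rows did at 1 day and 4.85% at 5 days) and 0 lower, and 7 at 1 day and 13 at 5 days also passed 1.3-fold. Their median difference was 0.20 at 1 day and 0.26 at 5 days. The largest at 5 days were Gla, alpha-galactosidase, at 0.66 (SE 0.12), Ctss, cathepsin S, at 0.65 (SE 0.09), Ctsd, cathepsin D, at 0.61 (SE 0.07), and Ctsz, cathepsin Z, at 0.60 (SE 0.09), all called. Of the 14 pump subunits 9 at 1 day and 10 at 5 days passed higher and 0 lower, but only Tcirg1, the a3 subunit, also passed 1.3-fold, at 0.40 at 5 days (SE 0.07, adjusted p = 0.000128, limma). The fold change of Atp6v0d2 was thus larger than that of each of the 14 listed subunits that had a row. Smoke called 0 of the lysosomal genes and 0 of the subunits at either duration.

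**Figure D4:**
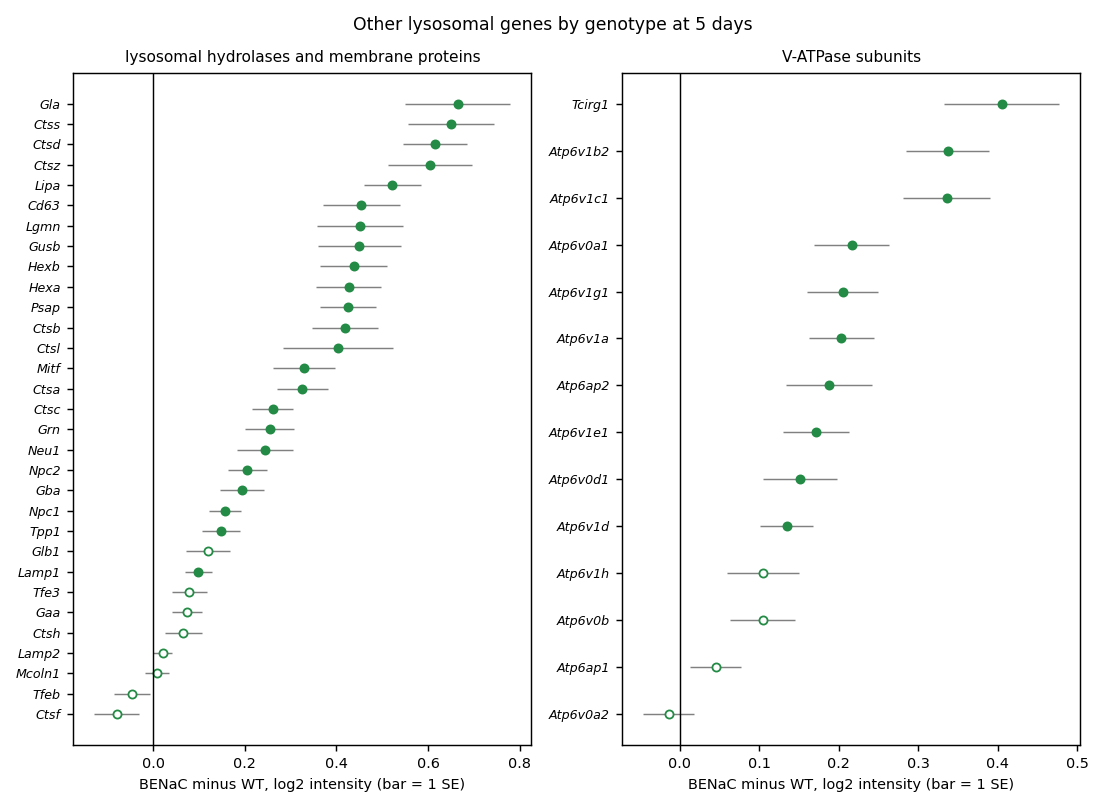
Difference in log2 intensity between BENaC and WT mice at 5 days (horizontal axes) for 31 lysosomal genes and 14 V-ATPase subunits (vertical axes). Bars are 1 SE and filled points passed an adjusted p of 0.05, 23 lysosomal genes and 10 subunits, all of them higher in BENaC mice.

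Among 15 measured scavenger receptors beyond the 9 genes, 2 were called higher in BENaC mice at 1 day and 1 at 5 days. Olr1, the receptor for oxidised low-density lipoprotein, was the one at 5 days, at 1.03 (SE 0.15, adjusted p = 6.16e-06, limma), while the list's median was -0.01. With smoke at 5 days 1 of the 15 was called, Mrc2, a collagen receptor, at -0.59 (SE 0.07). Of 14 genes of TREM2 signalling and lipid handling, 2 were called higher at 1 day and 5 at 5 days. The 5 were Mmp12, macrophage elastase, at 3.22 (SE 0.34), Spp1, osteopontin, at 1.22 (SE 0.26), Fabp5, a fatty acid carrier, at 0.69 (SE 0.10), Plin2, of lipid droplets, at 0.48 (SE 0.08), and Tyrobp, the TREM2 adaptor, at 0.47 (SE 0.09). In WT mice after 5 days of smoke Lpl, lipoprotein lipase, was called higher in this list at 0.47 (SE 0.10, adjusted p = 0.00441), and Mmp12 was not called, at 0.04 (SE 0.46).

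Markers of the cells that could carry these genes moved in several directions. Whole lung does not show which cells a marker's RNA came from, here or with smoke below. By genotype 6 of 16 alveolar macrophage markers were called higher and 4 lower at 1 day, and 7 and 4 at 5 days. Itgax, an integrin of alveolar macrophages, was at 1.21 (SE 0.14) and Slc39a2, a zinc transporter, at 1.18 (SE 0.16) at 5 days, while Krt79, a keratin, fell by 1.00 (SE 0.10) and Fabp1, a fatty acid carrier, fell by 0.92 (SE 0.14). Averaged over the 16 markers, single mice ran from 7.96 to 8.16 in WT sham and from 8.18 to 8.56 in BENaC sham at 5 days, without overlap. The ranges overlapped in sham mice at 1 day (7.74 to 8.20 in WT and 7.84 to 8.57 in BENaC) and in smoke mice at 5 days (8.01 to 8.24 in WT and 7.96 to 8.54 in BENaC). Of 8 measured interstitial macrophage markers 4 were called higher and 1 lower at 5 days. Of 7 osteoclast markers only Acp5, an acid phosphatase that lung macrophages also make, was called, at 1.04 (SE 0.13). Of 7 eosinophil markers 2 were called higher (Ear6 at 1.24 and Alox15 at 0.82). Of 8 neutrophil and 6 fibroblast markers 0 were called at either duration, and of 6 dendritic cell markers 1 was called higher at 1 day and 2 at 5 days. Their part in the results above was not tested.

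With smoke in WT mice at 5 days, 2 genes of the alveolar macrophage list were called higher, Slc39a2 at 1.02 (SE 0.19) and Krt19 at 0.41 (SE 0.07). In the same list 2 were called lower, Fabp1 at -1.61 (SE 0.16) and Ear2 at -0.44 (SE 0.10). The mean of the 16 markers ran from 7.96 to 8.16 in WT sham and from 8.01 to 8.24 in WT smoke mice. Of 10 monocyte markers 4 were called lower in WT and 4 in BENaC mice. Over both genotypes smoke lowered 6 of 10 at each duration, among them Plac8 by 0.75 and Ccr2, the monocyte chemokine receptor, by 0.51 at 5 days. Of the 8 interstitial macrophage markers Lyve1, a hyaluronan receptor, was called higher over both genotypes at 5 days at 0.61 (SE 0.08) and Cx3cr1, the fractalkine receptor, lower at -0.49 (SE 0.09), and both were called in each genotype alone. Of 7 eosinophil markers Ccr3, the eotaxin receptor, was called lower over both genotypes at -0.91 (SE 0.26). Il5ra, an interleukin 5 receptor subunit, was at -0.36 (SE 0.11), past the adjusted p but not 1.3-fold. Neither was called in WT or BENaC mice alone. The mean of the 7 eosinophil markers overlapped between sham and smoke mice at 5 days. It ran from 3.85 to 4.38 and from 3.77 to 4.21 in WT, and from 4.00 to 5.35 and from 3.97 to 5.61 in BENaC. Of 6 fibroblast markers Col3a1 at -0.58 (SE 0.15) and Col1a1 at -0.39 (SE 0.12), both collagen chains, were called lower over both genotypes, as was 1 of 6 dendritic cell markers, the chemokine receptor Xcr1, at -0.38 (SE 0.09). No neutrophil or osteoclast marker was called with smoke at 5 days. The part of these markers in the rise of the 4 genes and in the values of Siglec5 was not tested.

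Across the 79 mice the 9 genes rose and fell together except for Siglec5. The 36 pairs had Pearson's r from 0.08 to 0.98 with a median of 0.83, and with each group's mean removed from 0.25 to 0.95 with a median of 0.77. The genes share the arrays and the mice, so these values are descriptions. Gpnmb and Ctsk were the most alike at 0.98, and of all named rows the one most like Trem2 was Ctsz (0.96), like Cd68 Ccl6, a macrophage chemokine (0.98), like Mrc1 Tfec, a factor of the MITF family (0.95), like Msr1 Slc11a1, a metal transporter of phagosomes (0.92), and like Marco Ly75, an endocytic receptor (0.89). Siglec5 had r = 0.73 with its nearest row, Rab44. Within groups its nearest rows were Alox5, 5-lipoxygenase (0.72), Cebpe, a granulocyte factor (0.71), and Prg2, the eosinophil major basic protein (0.71), none of which was among the nearest rows of another of the 9 genes.

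**Figure D5:**
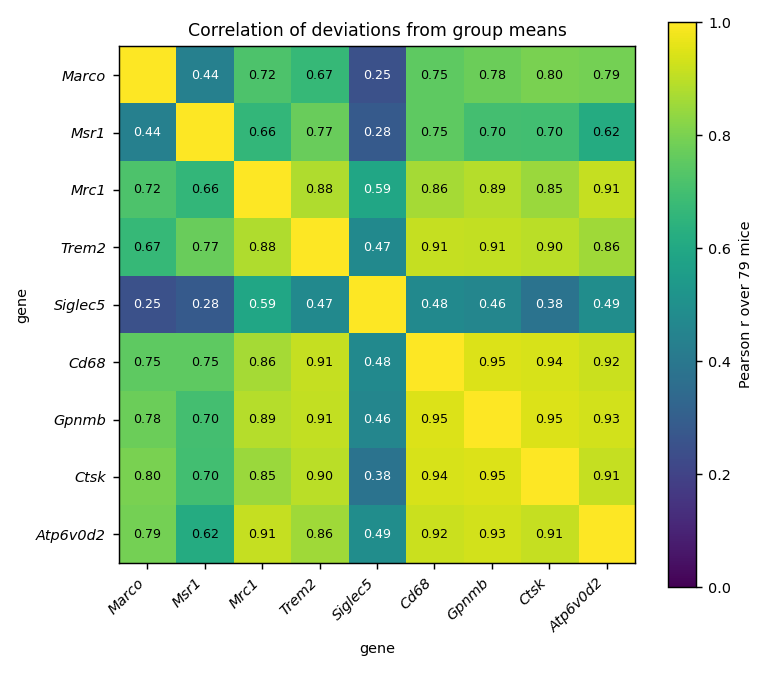
Pearson's r between each pair of the 9 genes (both axes) over 79 mice after the mean of each of the 16 groups was removed. The lowest value is 0.25 for Siglec5 with Marco, Msr1 with Marco is also low at 0.44, and the highest value is 0.95 for Gpnmb with Cd68.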

How the data were processed

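Lung RNA of 79 mice was hybridised to Affymetrix moGene 2.1 arrays. The deposited values are log2 intensities made by the authors with RMA (background correction, probe sequence and GC adjustment, quantile normalization and median polish) in Partek 6.6, per the labels and the study's methods, after 80 samples were run on 1 plate. Affymetrix Expression Console 1.4 served for quality control. Quantile normalization sets every array to the same distribution, so that only relative changes are measured. Array medians were 4.44 to 4.55. The number of arrays limits the precision.

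Rows took the gene name given by the study where available and otherwise that of their RefSeq accession (GRCm38.p6). Levels are not compared between genes. The 9 genes, the gene lists and the 4 mice left out were chosen with earlier results of these data known. The text names the 9 genes, for each the 3 rows most correlated with it (the nearest 1 is printed, except for Siglec5), and from each list up to 4 genes with the largest difference, plus Mmp12. Marker genes called with smoke at 5 days, Mrc2, Lpl and Il5ra were named after their values were seen.

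Models were fitted over all 31350 rows with limma 3.58.1 in R 4.3.3: exposure, genotype and sex within each duration, their interactions, genotype by exposure groups with sex, and interactions with duration over all mice. P-values were adjusted by Benjamini-Hochberg over all rows. Interactions were called on the adjusted p alone. The fit was tested on simulated data. P-values set each coefficient against the spread between mice, which limma shares across rows. Other normalizations, weights, thresholds, sexes apart and leaving out each mouse were tried.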

Additional observations from a re-analysis of the deposited data

Results flagged for a closer look

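In 3 of 144 combinations of a gene and a group of 4 to 6 mice, 1 mouse lay far from the rest of its group by Dixon's criterion, which chance alone gives in about 1 of 20 groups. Marco was 6.97 in WT smoke female replicate 4 at 1 day, against 6.18 to 6.32 in the other 4 mice. Mrc1 was 10.87 in BENaC smoke female replicate 3 at 5 days, one of the mice that stood apart, against 9.11 to 9.50 in the other 4. Siglec5 was 6.44 in the same mouse, against 5.83 to 5.96 in the other 4.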

How the results depend on the processing

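Most results kept their direction and their side of the threshold under other normalizations, array weights, a trend and robust prior, an ordinary linear model, a filter on dim rows, thresholds and a fit over all mice. Of 1170 refitted coefficients, 1086 kept both, 43 lost and 21 gained a call (17 and 23 of the losses in females and in males alone) and 20 changed sign. The total includes a setting with the Siglece row for Siglec5, in which no other gene could change. Counts that moved by over 1.5 times did so mainly when the sexes were fitted apart, which leaves fewer mice. In females alone the calls by genotype were 5 at 5 days, 1 in sham mice at 1 day, 5 in sham and 0 in smoke mice at 5 days, and those by smoke in WT mice at 5 days were 0. In males alone they were 1 by genotype at 1 day, 0 in sham and 0 in smoke mice at 1 day, 2 in smoke mice at 5 days, 1 by smoke at 5 days and 1 by smoke in WT mice at 5 days. The call by smoke at 5 days rose from 0 to 1 with array weights, with no fold threshold and without the mice that stood apart. Leaving out 1 mouse at a time gave 0 to 4 calls by smoke at 5 days, 3 to 5 by genotype in sham mice at 1 day (5 without BENaC sham female replicate 1 or BENaC sham male replicate 4) and 0 to 1 by smoke in BENaC mice at 5 days (1 without BENaC sham male replicate 1, Siglec5 at -0.41).

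No coefficient was called in a fit in which its sign changed. For genotype at 1 day Siglec5 was at -0.0029 with array weights, -0.0055 with quantile normalization, -0.019 without the mice that stood apart, -0.077 in females and -0.019 to 0.043 with 1 mouse left out. In males it was -0.014 at 5 days. In sham females at 1 day it was -0.12. In smoke mice at 1 day it was 0.33 with the Siglece row and -0.11 to 0.0062 with 1 mouse left out, and at 5 days -0.056 in males and -0.038 to 0.070 with 1 mouse left out. Marco by genotype in smoke females at 5 days was -0.039. Mrc1 by smoke at 5 days was -0.0099 without the mice that stood apart and -0.020 to 0.074 with 1 mouse left out. Msr1 by smoke in WT mice at 5 days was 0.021 in females and -0.087 to 0.027 with 1 mouse left out, and its interaction with genotype was 0.096 in males. By smoke in BENaC mice at 5 days Gpnmb was -0.0078 with array weights, -0.0030 without the mice that stood apart and -0.33 in females, and males gave 0.43 for Marco, 0.020 for Mrc1, 0.11 for Cd68, 0.15 for Ctsk and 0.16 for Atp6v0d2. With 1 mouse left out the same contrast ran from -0.17 to 0.092 for Marco, -0.33 to 0.018 for Ctsk, -0.14 to 0.045 for Atp6v0d2 and -0.17 to 0.22 for Gpnmb. The cause was not tested.

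Replicate numbers are shared between groups, but mice with the same number did not deviate together (mean r 0.015 over 266 pairs, from -0.44 to 0.67). With the replicate block 7 genes were called by genotype at 1 day and 8 at 5 days, and 0 by smoke at either duration.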
